A study of Mus musculus with 4 samples.

Results

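The 10 genes described here, Apoe, Apoc1, Pltp, Lpl, Abca1, Abcg1, Mylip, Soat1, Plin2 and Fabp7, handle lipid and cholesterol in macrophages, and were taken by symbol out of 27998 genes listed in the files. All 10 were detected. They were measured in CD45+ leukocytes isolated from livers of adult wild-type C57BL/6 mice, by droplet single-cell RNA sequencing in which each RNA molecule is counted once through a unique molecular identifier (UMI). The exercise group (2 libraries) ran on a motorized treadmill at 12.5 m/min, and the sedentary group (2 libraries) was placed on one whose belt stayed still, both for 60 min a day on 5 days a week over 4 weeks. Neither group carried an allele, diet or drug beyond this. Serum alanine aminotransferase, an enzyme that leaks from injured hepatocytes, was 26 and 59 U/L for exercise replicates 1 and 2 and 33 and 56 U/L for sedentary replicates 1 and 2. Whether replicates came from separate animals is not stated, so each p measures only the spread between these samples, which may be technical.

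Macrophages take up lipoproteins and dying cells and must dispose of the cholesterol they carry. They pass it out through the membrane pumps ABCA1 and ABCG1 to apolipoproteins and particles outside, or esterify it through SOAT1 and keep it in lipid droplets coated by PLIN2. The nuclear receptor LXR, which senses oxidized cholesterol, switches on Abca1, Abcg1, Apoe, Apoc1, Pltp, Lpl and Mylip in macrophages. Kupffer cells, which line the liver sinusoids as resident macrophages, meet lipoproteins and cell debris directly from the blood.

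The libraries held 2991 to 4265 barcodes and 10050976 to 14849778 UMIs each, and 14560 of 15383 barcodes were kept as cells. Cells were clustered without the 10 genes, and clusters were named from marker lists; a class is called "like" its type because the name rests on those markers alone. Kupffer-like cells, in which all 11 Kupffer markers (among them Clec4f, Timd4, Vsig4 and C1qb) were tested, numbered 1278 and 1832 in exercise and 1460 and 1466 in sedentary libraries. Levels are given as CPM, the UMIs of a gene scaled to a total of 1000000 UMIs in each class and library. UMIs of 10 hepatocyte markers were higher in the sedentary libraries, at 798 and 370 CPM over all kept cells against 85.7 and 67.1 with exercise, and median depth was lower, at 2026 and 2381 against 2717 and 2845 UMIs per cell. Between 11 and 28 cell barcodes were shared by any pair of libraries. The 3′ counts were not divided by gene length, so levels are compared between cells and not between genes. Differences among cell types are a description, without a test, since all types of a library share its preparation.

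Apoe (chr7:19696109-19699188, minus strand, GRCm38) encodes apolipoprotein E, which accepts cholesterol from the pumps and carries remnant particles to their receptors. Its highest level was in the other macrophage-like class, macrophages outside the Kupffer clusters that were named from Cx3cr1, Ms4a7 and other markers. There it stood at 46941 and 45713 CPM in exercise and 42419 and 39490 in sedentary libraries. In Kupffer-like cells it was 17801 and 19325 with exercise and 17345 and 18614 in sedentary libraries. The mean in other macrophage-like cells was 2.39 times that in Kupffer-like cells, and no library of one class reached the range of the other. Cycling Kupffer-like cells followed at 10879 ± 1857 (SD, n = 4 libraries), then cells like liver sinusoidal endothelium (LSEC-like) at 7454 ± 412 and classical monocyte-like cells at 4712 ± 2831. The ranges of the last pair overlapped, because exercise replicate 2 held 8925 CPM in its monocyte-like cells against 2860 to 3739 in the other three libraries. LSEC-like cells were present although the cells had been selected for the leukocyte surface protein CD45. The Apoe level in T-like cells was 4.14% to 5.53% of the Kupffer-like level of the same library, while the 3 complement genes C1qa, C1qb and C1qc, which T cells should lack, ranged from 1.93% to 3.65%. In B-like cells Apoe was at 6.74% to 9.71%, also above the complement genes there, at 2.88% to 4.92%. At a common depth 56.0% of T-like cells had a UMI of Apoe. The source of the low Apoe levels in lymphocyte and dendritic classes was not tested, and they were not read as expression.

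Apoc1 (chr7:19689481-19692660, minus strand) lies 3448 bases from Apoe on the same strand and encodes a small apolipoprotein that hinders uptake of remnant particles. Unlike Apoe, it was highest in Kupffer-like cells, at 6762 and 6751 CPM with exercise and 6185 and 6049 in sedentary libraries. Other macrophage-like cells held 273 and 1594 with exercise and 364 and 470 in sedentary libraries, so the neighbouring genes ranked these macrophage classes in opposite order in every library. The single high value came from exercise replicate 2, with 562 Apoc1 UMIs in 84 cells. Cycling Kupffer-like cells held 3693 ± 244 (SD, n = 4). In T-like cells Apoc1 stood at 2.67% to 2.89% of the Kupffer-like level, within the range of the complement genes.

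Pltp (chr2:164839518-164857711, minus strand) encodes phospholipid transfer protein, which remodels high-density lipoprotein. Its level in Kupffer-like cells was 748 and 832 CPM with exercise and 837 and 800 in sedentary libraries. A second place was shared by cycling Kupffer-like cells, at 504 ± 113 (SD, n = 4), and plasmacytoid dendritic (pDC-like) cells, at 504 and 497 with exercise and 521 and 444 in sedentary libraries. The pDC-like level was 55.5% to 67.4% of the Kupffer-like level, whereas C1qb in the same pDC-like cells was 2.14% to 3.65% of its own. No other dendritic class came near: conventional dendritic cDC2-like cells had 86.4 ± 53.8 and cDC1-like cells 17.5 ± 5.01. Pltp overlaps Ctsa, a lysosomal gene on the opposite strand, over 1515 bases. The use of strand in counting is not stated, so whether reads there were told apart is not known.

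Lpl (chr8:68880491-68907448, plus strand) encodes lipoprotein lipase, which splits triglyceride in circulating particles. It was 1229 and 1033 CPM with exercise and 1355 and 797 in sedentary libraries in Kupffer-like cells, and 1070 ± 162 (SD, n = 4) in cycling Kupffer-like cells, with overlapping ranges. Classical monocyte-like cells came next at 258 and 302 with exercise and 236 and 232 in sedentary libraries, above the highest LSEC-like value of 156 and the highest other macrophage-like value of 152. Thus Lpl was at 8.73% to 13.7% of the Kupffer-like level in the very macrophages that held the most Apoe. In T-like cells it was 1.07% to 1.51% of the Kupffer-like level.

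Abca1 (chr4:53030787-53159895, minus strand) encodes the pump that loads cholesterol onto lipid-poor apolipoproteins. Kupffer-like cells held 267 and 294 CPM with exercise and 240 and 327 in sedentary libraries. Cycling Kupffer-like cells followed at 209 ± 21.5 (SD, n = 4), below the Kupffer-like range, and then other macrophage-like cells at 68.7 ± 30.9 and LSEC-like cells at 64.5 ± 16.2. When each cell was thinned to 1000 UMIs, 25.6% ± 2.36 of Kupffer-like cells and 0.867% ± 0.400 of T-like cells had an Abca1 UMI. Without thinning the shares were 51.3% and 2.66%, at median depths of 2019 to 2727 and 2435 to 3023 UMIs per cell. B-like cells, at 35.0 ± 6.41 CPM, lay at 10.0% to 15.2% of the Kupffer-like level, above the 2.39% to 4.09% in T-like cells of the same libraries.

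Abcg1 (chr17:31057675-31117988, plus strand) encodes the pump that hands cholesterol to mature high-density particles. It stood at 206 and 178 CPM with exercise and 180 and 199 in sedentary libraries in Kupffer-like cells, which did not differ in range from cycling Kupffer-like cells at 187 ± 30.2 (SD, n = 4). LSEC-like cells came next, at 110 and 86.1 with exercise and 102 and 99.9 in sedentary libraries. They held 48.3% to 56.4% of the Kupffer-like level, against 16.8% to 32.8% for Abca1. T-like cells, at 25.8 ± 4.59, held 10.6% to 15.7% of the Kupffer-like Abcg1 level, above the complement genes.

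LXR binds DNA as a pair with RXR, at repeats of the half-site AGGTCA separated by 4 bases, and the PPAR receptors prefer a spacing of 1 base. RefSeq promoter sequence of GRCm38.p6 was held for 7 of the 10 genes, in 9 promoters, and the 250 bases before each start were searched on both strands. Allowing 2 mismatches in the 12 half-site bases, no promoter of the 7 genes held the 4-base repeat, and 2.57% of all 32851 promoters did. Allowing 3, the promoters of Abca1 and Fabp7 held one, as did 18.5% of all promoters. With the 1-base spacing and 2 mismatches, only Plin2 of the 7 genes had a match, against 3.24% of all promoters, and with 3 mismatches Apoe, Fabp7 and Plin2 had one, against 21.3%. The Abca1 stretch is shown because its repeat, in capitals, starts 67 bases before the start of the gene. The other lines show the sites alone, on the strand on which the repeat reads, with the half-sites in capitals. A match is a description of letters and not evidence of binding.
Abca1 upstream, chr4:53159896-53160145, minus strand: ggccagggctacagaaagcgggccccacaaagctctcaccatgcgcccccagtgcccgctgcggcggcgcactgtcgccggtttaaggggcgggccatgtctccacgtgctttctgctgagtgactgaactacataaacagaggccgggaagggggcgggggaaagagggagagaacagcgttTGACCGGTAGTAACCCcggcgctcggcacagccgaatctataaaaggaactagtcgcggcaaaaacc
Abca1 site, chr4:53159947-53159962: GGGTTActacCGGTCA
Fabp7 site, chr10:57784736-57784751: AGATCCtcccAGTTCA
Plin2 site, chr4:86670272-86670284: AGGTCAgGGGTCC

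Mylip (chr13:45389742-45412022, plus strand) encodes a ubiquitin ligase that marks the LDL receptor for breakdown and so brakes cholesterol uptake. It was the only one of the 10 genes with its highest mean outside the macrophages. LSEC-like cells held 237 and 295 CPM with exercise and 249 and 221 in sedentary libraries. Kupffer-like cells held 81.2 and 104 with exercise and 68.8 and 69.2 in sedentary libraries, so the LSEC-like mean was 3.1 times as high and the ranges were apart. Kupffer-like, B-like (70.0 ± 13.2, SD, n = 4), NK or ILC-like (67.9 ± 13.3), other macrophage-like (63.6 ± 8.84) and cycling Kupffer-like cells (58.9 ± 6.61) followed in this order, each overlapping the next.

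Soat1 (chr1:156424525-156474331, minus strand) encodes the enzyme that turns free cholesterol into stored ester. Kupffer-like cells held 179 and 171 CPM with exercise and 182 and 172 in sedentary libraries, a spread of 5.34 (SD, n = 4) around 176. Cycling Kupffer-like cells held 148 ± 12.4 and classical monocyte-like cells 101 ± 22.9. Among dendritic classes the cDC2-like cells held 56.5 ± 3.37 and the cDC1-like cells 37.9 ± 2.93, above 18 ± 0.91 in pDC-like cells.

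Plin2 (chr4:86648386-86670060, minus strand) encodes a coat protein of lipid droplets and was spread most evenly. Its means lay between 130 and 146 CPM in Kupffer-like, cycling Kupffer-like, other macrophage-like, classical monocyte-like, cDC1-like and LSEC-like cells, and each of these overlapped its neighbour. Kupffer-like cells held 118 and 186 with exercise and 115 and 167 in sedentary libraries. The cDC1-like cells held 152 and 112 with exercise and 152 and 128 in sedentary libraries, close to the Kupffer-like level although their mean Apoe, Apoc1, Lpl and Abca1 levels were below those of T-like cells. Monocyte-like cells ranged from 48.6 in exercise replicate 1 (10 UMIs in 36 cells) to 323 in exercise replicate 2.

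Fabp7 (chr10:57784881-57788450, plus strand) encodes a fatty acid carrier of the cytoplasm. Of the 10 genes it fell off most steeply outside the Kupffer-like classes. Cycling Kupffer-like cells held 874 and 737 CPM with exercise and 1197 and 739 in sedentary libraries, and Kupffer-like cells 681 and 699 with exercise and 870 and 625 in sedentary libraries. The ranges of these classes overlapped. The next class, LSEC-like cells, held 63.8 ± 23.7 (SD, n = 4), and the Kupffer-like mean was 11.3 times as high. Fabp7 in LSEC-like cells was at 5.31% to 15.1% of the Kupffer-like level, near the complement genes C1qa, C1qb and C1qc there, at 6.28% to 12.5%. The source of this Fabp7 RNA was not tested. Other macrophage-like cells held 2.78% to 6.08% of the Kupffer-like level, where the same comparison gave 212% to 264% for Apoe.

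**Figure D1:**
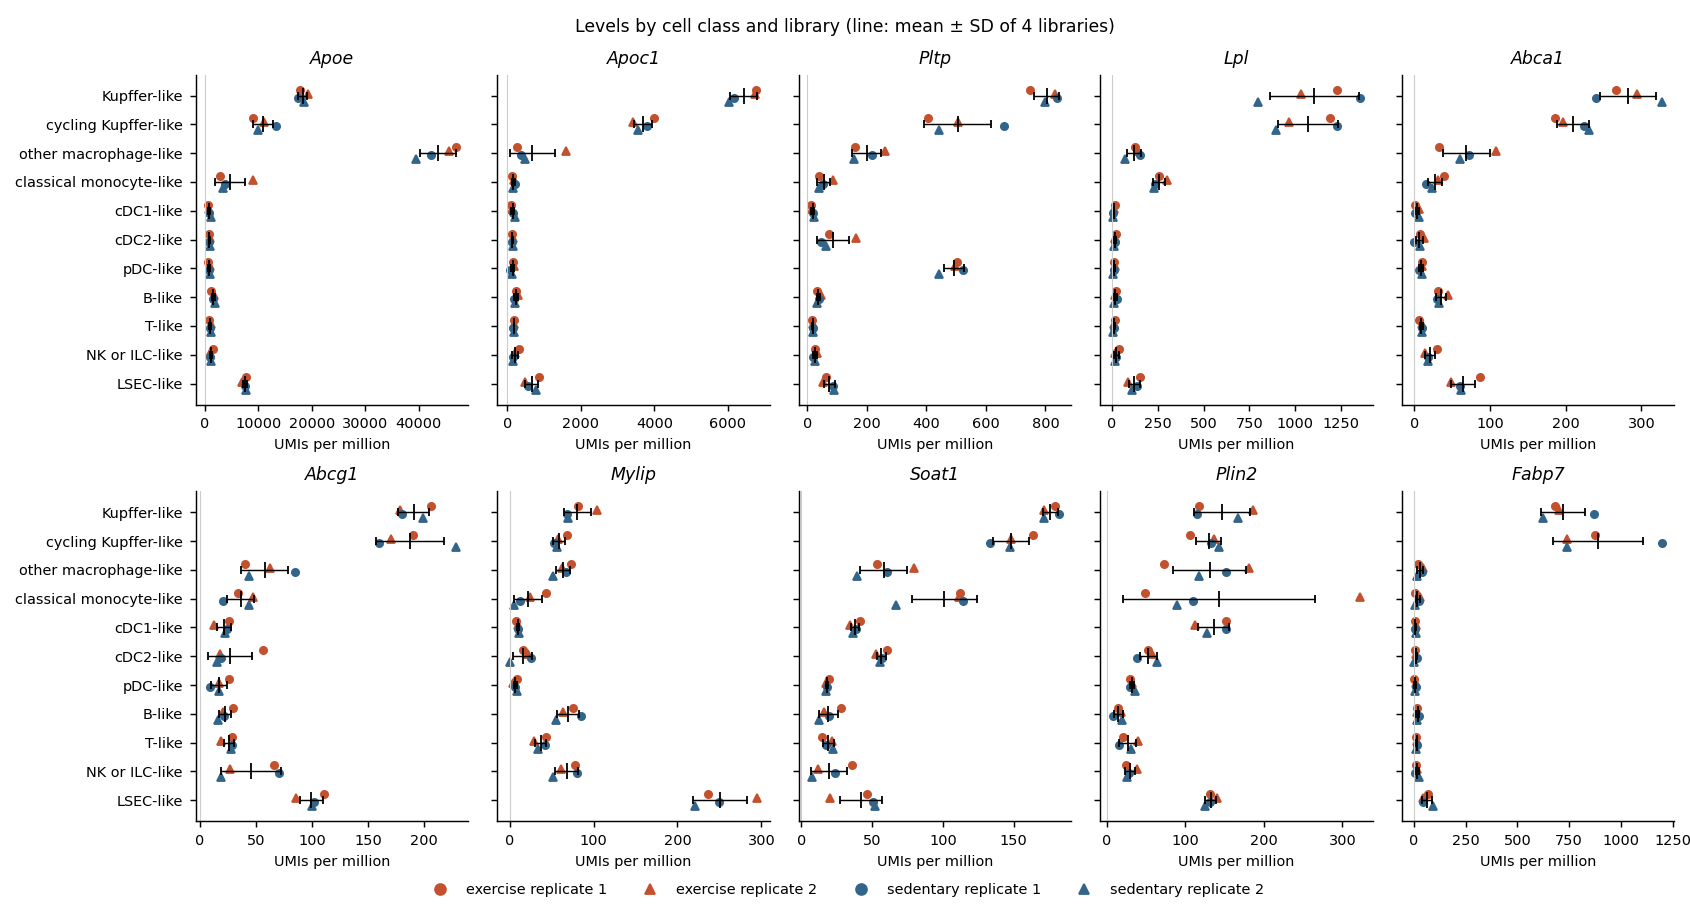
CPM of the 10 genes (each panel has its own horizontal axis, from 0) in 11 cell classes; circles are replicate 1, triangles replicate 2, orange exercise and blue sedentary libraries, and the black mark with its bar is the mean ± SD of 4 libraries. Apoe peaks in other macrophage-like cells and Mylip in LSEC-like cells, Pltp has a second peak in pDC-like cells, and Plin2 is spread over 6 classes.

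In all, 7 of the 10 genes had their highest mean in Kupffer-like cells, though Abcg1, Lpl and Plin2 overlapped the next class. Over the 44 sums of 11 classes and 4 libraries, which share libraries and depth, the closest pair among the 10 was Apoc1 and Fabp7 (Pearson r = 0.954, on log2 values with 5 CPM added), followed by Apoc1 and Abca1 (r = 0.925). Among 5258 genes with at least 50 CPM in 1 class, the pattern of Apoe was most like those of C1qa (r = 0.953), C1qb (r = 0.950) and C3ar1 (r = 0.948). Apoc1 was most like Vsig4 (r = 0.983), Clec4f (r = 0.981) and Folr2 (r = 0.974), 3 surface receptors of Kupffer cells. Fabp7 came closest to Fcna (r = 0.969), Folr2 (r = 0.967) and Cd5l (r = 0.967). Abca1 came closest to Clec4f (r = 0.940), Hmox1 (r = 0.934) and Il18bp (r = 0.933), and Abcg1 to Rxra (r = 0.925), the partner receptor of LXR, Il18bp (r = 0.917) and Ptgs1 (r = 0.898). Lpl was most like Adgre4 (r = 0.962), Atp6v1b2 (r = 0.954) and Wfdc17 (r = 0.948), and Pltp most like the lysosomal genes Grn (r = 0.903) and Ctsb (r = 0.899) and P2ry13 (r = 0.897). Soat1 was most like B4galt6 (r = 0.911), Sowahc (r = 0.911) and Capza2 (r = 0.910), and Plin2 most like Akr1a1 (r = 0.908), Acvrl1 (r = 0.868) and Anxa5 (r = 0.853). Mylip, the gene of endothelial-like cells, was most like Ssh1 (r = 0.843), Tgfbr2 (r = 0.816) and Txnip (r = 0.805). These correlations are descriptions and carry no test.

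Within the Kupffer-like class 8 of the 10 genes fell into opposite gradients over its 4 clusters, numbered 0, 3, 4 and 6. Apoe rose from 7721 and 8078 (exercise) and 7654 and 7735 (sedentary) in cluster 3, through 12418 ± 464 (SD, n = 4) in cluster 0 and 26104 ± 1106 in cluster 4, to 28603 and 31110 (exercise) and 35112 and 36225 (sedentary) in cluster 6. Apoc1 and Fabp7 had the same order of means. Abca1 ran the other way: it was 446 and 515 (exercise) and 343 and 585 (sedentary) in cluster 3, and 51.9 and 70.3 (exercise) and 98.5 and 92.5 (sedentary) in cluster 6. Abcg1, Soat1, Lpl and Mylip followed the order of Abca1. Pltp followed neither order and peaked in cluster 4 at 912 ± 47.1, and Plin2 means lay between 139 and 167 in all 4 clusters. Apoe and Apoc1 were therefore low where the pumps and the esterifying enzyme were high, in each of the 4 libraries.

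Clusters 3 and 6 had like depths, with medians of 1490 and 1398 UMIs per cell, and both held the Kupffer marker Clec4f, at 2870 ± 167 and 4267 ± 424 CPM (SD, n = 4). They differed in other ways. The mitochondrial share was 11.6% in cluster 3 and 3.88% in cluster 6. Malat1, a long RNA kept in the nucleus, was 30161 and 33588 (exercise) and 25696 and 34061 (sedentary) in cluster 3 but 975 and 1273 (exercise) and 560 and 529 (sedentary) in cluster 6, and at least 20201 in every library of clusters 0 and 4. The leading genes of cluster 6 included the hepatocyte transcripts Mup3, Mup20, Mup7 and Apoa2, while the hepatocyte gene Alb had similar means in both, 174 CPM in cluster 6 and 187 in cluster 3. C1qb was 8721 ± 219 in cluster 6 and 2442 ± 279 in cluster 3.

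For the 10 genes the difference between those clusters ran with the length of the gene. On a log2 scale with 5 CPM added, cluster 3 exceeded cluster 6 by 2.52 for Abca1, which spans 129 kb, by 2.12 for Abcg1 (60.3 kb), by 1.49 for Soat1 (49.8 kb), by 1.64 for Lpl (27.0 kb) and by 1.78 for Mylip (22.3 kb), in 4 of 4 libraries each. Plin2 (21.7 kb) differed by 0.22, higher in 3 of 4 libraries. Pltp (18.2 kb), Fabp7 (3.57 kb), Apoc1 (3.18 kb) and Apoe (3.08 kb) gave -0.27, -0.73, -1.56 and -2.07, lower in all 4 libraries. Pearson r between the log of gene length and this difference was 0.929 over the 10 genes. Over all 6154 genes with at least 50 UMIs in both clusters together it was 0.463, and the median difference climbed from -0.28 in the shortest of 5 equal groups of genes (up to 7.76 kb) to 1.28 in the longest (from 63.2 kb). The counts may include intronic reads, and the part of nuclear RNA, free RNA or gene length in these gradients was not tested.

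**Figure D2:**
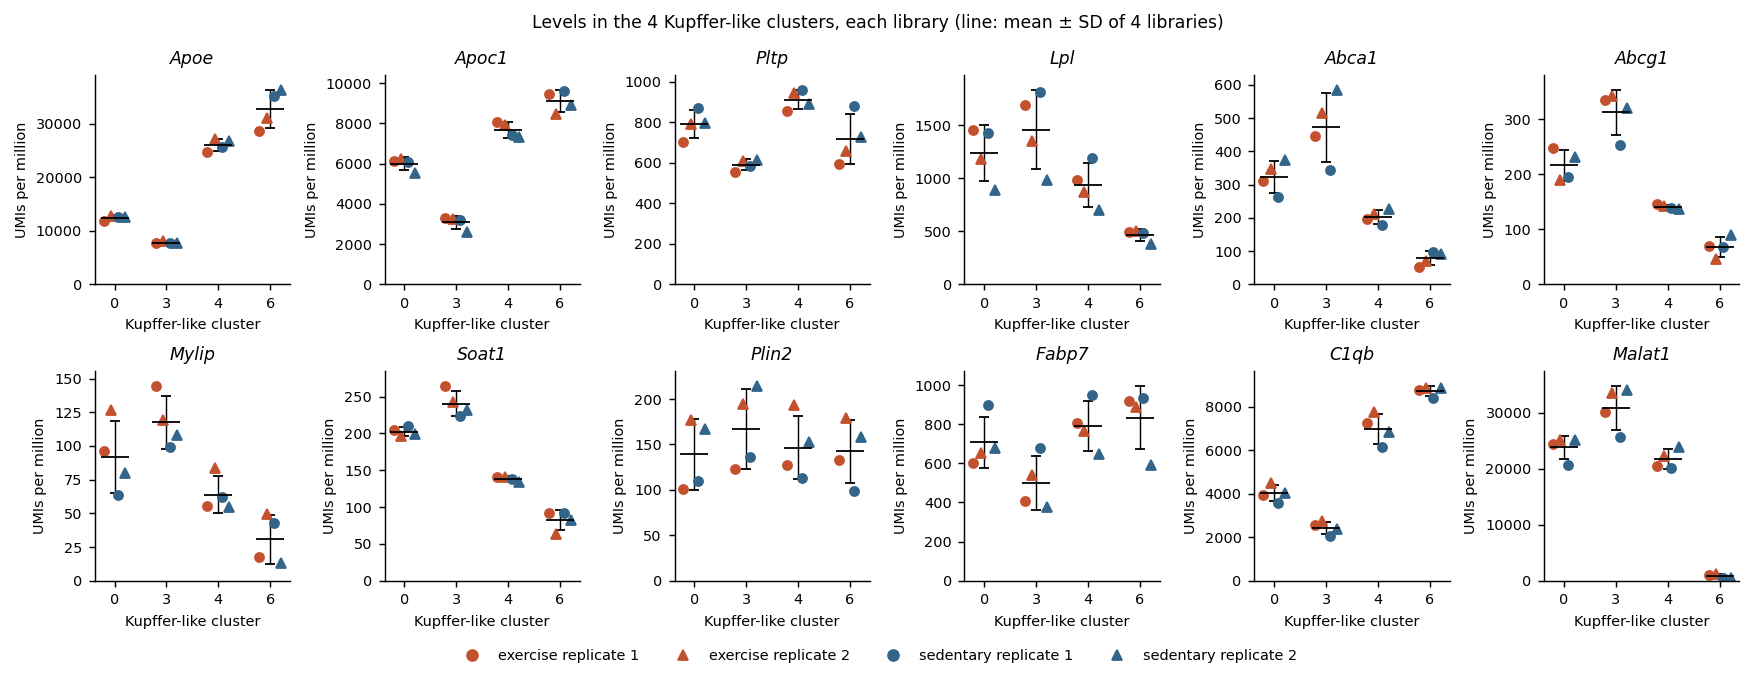
CPM of the 10 genes, C1qb and Malat1 in the Kupffer-like clusters 0, 3, 4 and 6; points are libraries (orange exercise, blue sedentary, circles replicate 1, triangles replicate 2) and black marks the mean ± SD of 4 libraries, with each vertical axis starting at 0. Apoe, Apoc1 and C1qb are lowest in cluster 3 and highest in cluster 6, Abca1, Abcg1, Soat1, Lpl and Mylip the reverse, and Malat1 is nearly missing from cluster 6.

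**Figure D3:**
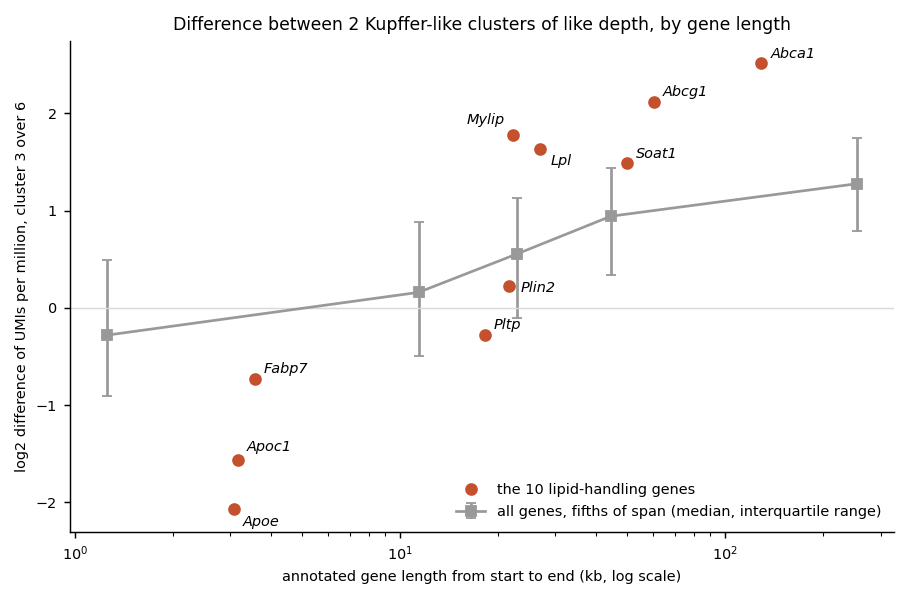
Log2 difference of CPM between Kupffer-like cluster 3 and cluster 6 (mean of 4 libraries, 5 CPM added) against the annotated length of the gene in kb on a log axis. Orange points are the 10 genes and grey squares are medians of all genes in 5 equal groups by length, with interquartile ranges; both climb with length, and the 10 genes run from -2.07 for Apoe to 2.52 for Abca1.

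Exercise was set against sedentary libraries on UMIs summed per library and class, with edgeR's quasi-likelihood test across all genes and Benjamini-Hochberg adjustment at 0.05. In Kupffer-like cells none of the 10 genes passed, 1 had an unadjusted p under 0.05, and DESeq2 also called none; of 9866 genes tested edgeR called 46, or 0.466%, of which 1 was higher and 45 were lower with exercise. The median log2 change of the 10 genes was 0.03, against 0.00 over all genes tested, with 6 higher and 4 lower. Without exercise replicate 2 the number of genes called fell to 3, without exercise replicate 1 to 24, and without sedentary replicate 2 it was 86, with none of the 10 among them.

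The brake gene Mylip had the smallest p. Its 81.2 and 104 CPM with exercise lay above 68.8 and 69.2 in sedentary libraries, a log2 change of 0.43 (SE 0.15) with an edgeR adjusted p of 0.729. The values were not the same in all clusters: in cluster 0 they were 96.6 and 126 against 63.7 and 79.9, in cluster 3 144 and 119 against 99.1 and 108, and the groups overlapped in cluster 4 (55.4 and 83.4 against 62.3 and 54.4) and cluster 6 (17.3 and 49.2 against 43.1 and 13.2). Apoc1, at 6762 and 6751 against 6185 and 6049, was the other gene whose groups did not overlap in Kupffer-like cells, with a log2 change of 0.14 (SE 0.10) and an edgeR adjusted p of 0.976.

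For the other 8 genes the groups overlapped. Over all 9866 genes tested in Kupffer-like cells, 33.8% had groups that did not overlap, so 2 of 10 is no result about these genes. The log2 difference was 0.04 (SE 0.11) for Apoe, -0.05 (SE 0.11) for Pltp, 0.01 (SE 0.12) for Abcg1 and -0.02 (SE 0.10) for Soat1. Errors were wider for Abca1 (-0.02, SE 0.16), Lpl (0.08, SE 0.20), Plin2 (0.10, SE 0.24) and Fabp7 (-0.11, SE 0.14), whose sedentary or exercise libraries differed among themselves. The clusters did not make up equal shares of the class: cluster 6 held 8.06% and 8.68% of Kupffer-like cells with exercise and 15.8% and 15.6% in sedentary libraries, and cluster 4 held 26.1% and 25.3% against 15.4% and 18.4%. The part of this makeup in the changes over the class was not tested. An exact permutation test of 2 against 2 libraries cannot go below p = 0.333, so single values were not tested that way.

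**Figure D4:**
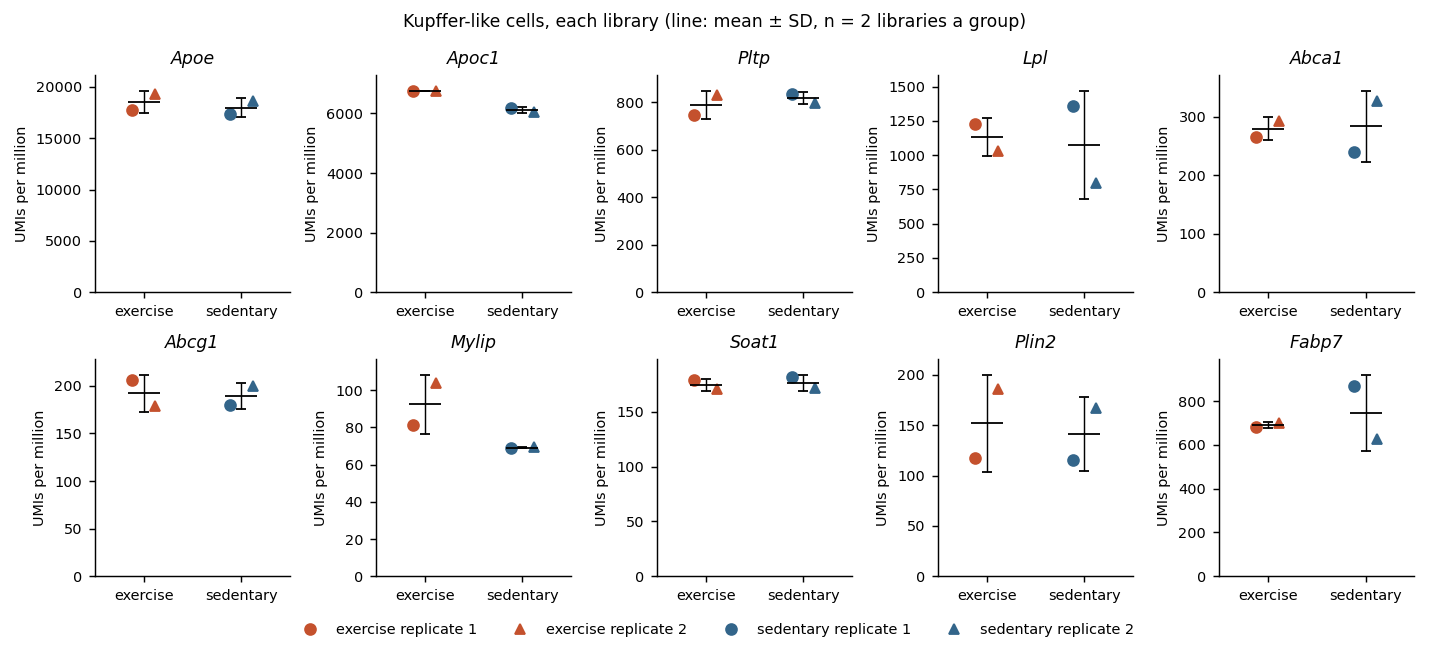
CPM of the 10 genes in Kupffer-like cells of each library (circles replicate 1, triangles replicate 2, orange exercise, blue sedentary), with the mean ± SD of 2 libraries a group in black and vertical axes starting at 0. Of the 10 genes Apoc1 and Mylip have both exercise libraries on one side of both sedentary libraries, as do 33.8% of all genes tested; Lpl is widest apart within the sedentary group.

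The result for Apoe and Apoc1 depended on how Kupffer-like cells were drawn. Hepatocyte and red blood cell genes were kept out of the genes used for clustering, a choice made after seeing the data. When they were allowed in, the Kupffer-like class kept 1149 and 1632 cells in exercise libraries but only 637 and 797 in sedentary libraries. In that class edgeR called 167 of 9339 genes tested, 83 higher and 84 lower with exercise, against 46 of 9866 with those genes left out. Among the called genes Apoe was 0.83 (SE 0.11) higher with exercise on the log2 scale and Apoc1 0.64 (SE 0.10), with edgeR adjusted p of 0.0105 and 0.0217. Abca1 and Soat1 moved the other way without passing, by -0.37 (SE 0.17) and -0.27 (SE 0.12), with adjusted p of 0.295 and 0.297, and Mylip stood at 0.16 (SE 0.17). Hepatocytes themselves make much Apoe and Apoc1, and the 10 hepatocyte markers in Kupffer-like cells summed to 144 and 107 CPM with exercise and 1466 and 689 in sedentary libraries; the part of hepatocyte RNA in these values was not tested. Without cluster 6 no gene of the 10 passed, and Apoe stood at 0.17 (SE 0.12) and Apoc1 at 0.21 (SE 0.10). In the 864 and 1348 exercise and 168 and 341 sedentary Kupffer-like cells in which none of the 10 markers was seen, Apoe stood at 0.41 (SE 0.17) and Apoc1 at 0.29 (SE 0.13), both with an edgeR adjusted p of 0.741.

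**Figure D5:**
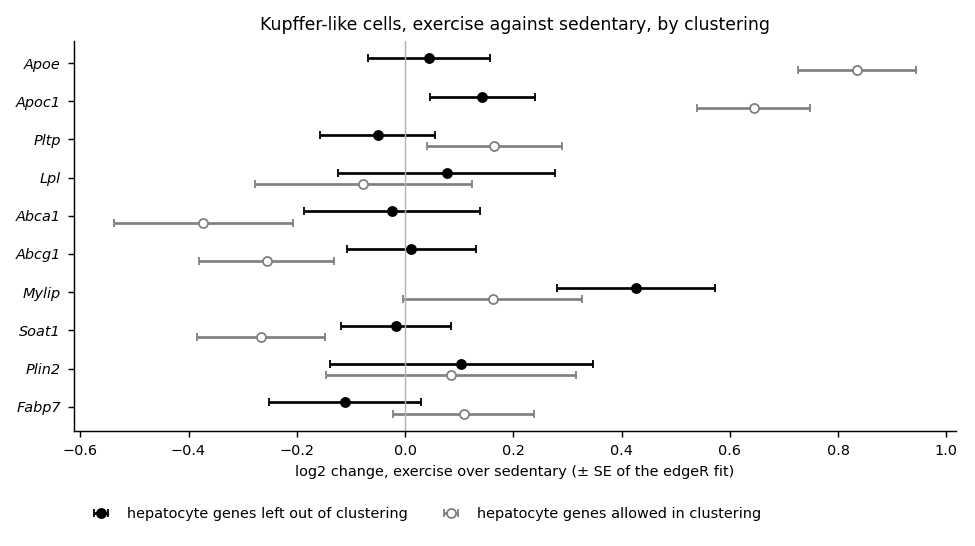
Log2 change of each gene in Kupffer-like cells, exercise over sedentary, with a standard error derived from the edgeR F statistic (4 libraries). Filled points come from clustering without hepatocyte and red blood cell genes, where all changes lie between -0.11 and 0.43 and none passed the test. Open points come from clustering with them, where Apoe (0.83) and Apoc1 (0.64) passed, among 167 called of 9339 genes tested.

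In Kupffer-like cells 5 of the 10 genes (Lpl, Plin2, Abca1, Apoe and Soat1) split by replicate number, as did 38.1% of all genes tested. Lpl was higher in both replicate 1 libraries (1229 and 1355) than in both replicate 2 libraries (1033 and 797), Plin2 was lower (118 and 115 against 186 and 167), and Abca1 was lower (267 and 240 against 294 and 327). Apoe was lower as well (17801 and 17345 against 19325 and 18614) and Soat1 higher (179 and 182 against 171 and 172). The replicate 1 libraries are those with alanine aminotransferase of 26 and 33 U/L, and the replicate 2 libraries those with 59 and 56 U/L. With 4 libraries this relation cannot be tested, and whether a replicate number stands for a shared day or cage is not stated.

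None of the 10 genes passed the edgeR test in the other 10 classes either, nor with DESeq2. All 10 genes passed the filter on low counts in B-like, T-like, LSEC-like and cycling Kupffer-like cells, 9 in other macrophage-like, 7 in classical monocyte-like, 6 in cDC1-like, 5 in cDC2-like and 4 each in NK or ILC-like and pDC-like cells. The share of all genes called was 0.229% in T-like, 0.131% in cycling Kupffer-like, 0.13% in cDC1-like, 0.0608% in B-like, 0.0595% in NK or ILC-like and 0.038% in other macrophage-like cells. It was 0% in cDC2-like, classical monocyte-like, LSEC-like and pDC-like cells, where 190, 96, 269 and 253 genes had an unadjusted p under 0.05 and DESeq2 called 0, 0, 1 and 0 genes.

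The smallest p among these belonged to Apoc1 in cDC1-like cells, with 96.7 and 120 CPM with exercise against 144 and 201 in sedentary libraries. Its log2 change was -0.76 (SE 0.20), with an unadjusted p of 0.00267 and an edgeR adjusted p of 0.411. Apoe in the same cells gave -0.46 (SE 0.18, adjusted p = 0.914). In these cells Apoc1 is at 1.43% to 3.33% of the Kupffer-like level, near the complement genes. Apoc1 was higher with exercise in pDC-like (log2 change 0.61, SE 0.22), NK or ILC-like (0.61, SE 0.25) and B-like cells (0.37, SE 0.16). The edgeR adjusted p were 0.900, 0.884 and 0.864. Apoc1 was at 1.35% to 2.76% of the Kupffer-like level in pDC-like cells and 2.99% to 4.35% in B-like cells, again near the complement genes. Its change was 1.20 in other macrophage-like, 0.20 in cDC2-like, 0.05 in T-like and 0.01 in cycling Kupffer-like cells. It was -0.02 in LSEC-like and -0.21 in classical monocyte-like cells. Pltp was lower with exercise in LSEC-like cells (62.1 and 53.3 against 87.7 and 90.3, log2 change -0.66, SE 0.24, edgeR adjusted p = 0.989) and higher in cDC2-like cells (72.8 and 165 against 44.3 and 63.2, log2 change 1.23, SE 0.42, edgeR adjusted p = 0.835). Neither change of Pltp passed. Its groups did not overlap in either class, but the share of all genes for which this holds was counted only in Kupffer-like cells (33.8%).

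Leaving out 1 library, or the filter on low counts, made calls in 4 of these classes. Each fit named here also called more of all genes tested in its class than the fit with all libraries and the filter. Without the filter Apoe passed in classical monocyte-like cells (log2 change 0.76) and Apoc1 in other macrophage-like cells (1.24). Over all genes 34 of 11677 and 42 of 11737 passed in these classes, against 0 of 3565 and 1 of 2630 with the filter. A fit without 1 library leaves a lone library in its group, so only the log2 changes are given for these fits. Without exercise replicate 1 the change was 1.93 for Apoc1 in other macrophage-like cells. It was 1.36 for Apoe and 1.73 for Plin2 in classical monocyte-like cells. All 3 changes then rest on exercise replicate 2 as the lone exercise library, which is assumed to vary like the others. For Apoc1 in other macrophage-like cells the change was 1.03 without the first sedentary library and 1.46 without the other. There the same exercise replicate 2 carries the high value. Without sedentary replicate 1 the changes of Apoc1 and Apoe in cDC1-like cells were -0.96 and -0.73. Without exercise replicate 2 the change of Apoe in B-like cells was -0.50.

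Other genes of the pathway were followed in Kupffer-like cells by 12 lists. No gene passed the edgeR test among the LXR and RXR receptors (4 of 6 tested), other LXR targets (11 of 13), cholesterol synthesis genes (19 of 24), genes of lysosomal cholesterol release (12 of 12), lipoprotein and scavenger receptors (7 of 10) or partners of lipoprotein lipase (5 of 8). The same held for lipid droplet turnover (12 of 21 tested), PPAR and fatty acid oxidation (11 of 14), other ABC lipid transporters (9 of 15) and lipid-associated macrophage genes (8 of 10). Their median log2 changes lay between -0.05 and 0.10, apart from -0.37 for the lipase partners. Mertk, a receptor for dying cells that LXR induces, was at 150 and 156 CPM with exercise and 183 and 194 in sedentary libraries, a log2 change of -0.31 (SE 0.11, edgeR adjusted p = 0.783). The scavenger receptor Stab1 was at 39.4 and 54.6 with exercise and 61.1 and 70.6 in sedentary libraries (log2 change -0.48, SE 0.18, edgeR adjusted p = 0.80), and Scarb1, the receptor for high-density lipoprotein, at 108 and 107 against 92.5 and 91.9 (0.22, SE 0.11, adjusted p = 0.935).

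The other genes named from these lists had no call either. Abcg2, a drug and sterol pump, differed by 0.58 (SE 0.22), the lipase gene Lipe by -0.50 (SE 0.22) and Rxrb by -0.13 (SE 0.14), with edgeR adjusted p of 0.818, 0.925 and 0.983. Of the synthesis genes, Scap differed by 0.24 (SE 0.16), Hmgcs1 by -0.26 (SE 0.18) and Nsdhl by -0.50 (SE 0.36). The lysosomal genes Scarb2 and Gramd1a differed by 0.17 (SE 0.11) and 0.24 (SE 0.16), and the fatty acid oxidation gene Cpt1a by 0.18 (SE 0.13).

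The called pathway genes were 4 hepatocyte apolipoproteins and Fabp1. All 8 hepatocyte apolipoproteins tested were lower with exercise, and 4 of them passed. Apoa1 went from 192 and 94.2 CPM in sedentary libraries to 20.7 and 14.2 with exercise (log2 change -3.05, SE 0.32, edgeR adjusted p = 0.00762). Apoa2 went from 316 and 143 to 34.6 and 28.0 (-2.87, SE 0.32). Apoc3 went from 51.1 and 35.5 to 9.22 and 8.18 (-2.31, SE 0.21), and Apoh from 30.6 and 13.1 to 1.99 and 0.834 (-3.99, SE 0.53). Fabp1, the fatty acid carrier of hepatocytes, was the 1 gene of 7 tested fatty acid carriers that passed, at 9.71 and 10.7 with exercise and 24.8 and 26.4 in sedentary libraries (log2 change -1.32, SE 0.18, edgeR adjusted p = 0.0223). All 10 hepatocyte markers fell too, with a median of -3.22, and 3 of them (Apoa1, Apoa2, Apoc3) stand on both lists. Apoe and Apoc1 differed by 0.04 and 0.14 in the same cells, and by 0.83 and 0.64 when hepatocyte genes were allowed in clustering. The part of hepatocyte RNA in any of these changes was not tested.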

How the data were processed

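The authors deposited raw UMI counts for each gene in each barcode, with no normalization. Cell Ranger (version not stated), Seurat 3.1 and the build mm10 (GRCm38) are named in the submitters' processing notes, and the series text names a pre-mRNA reference, so intronic reads may be counted. Barcodes were kept from 500 UMIs and 200 genes upward and up to a mitochondrial share of 20%, and 460 predicted doublets were removed. The lowest total per barcode was 931 to 1126 UMIs, so empty droplets could not be read. Clustering used 2000 variable genes, 30 components, 20 neighbours and Leiden resolution 1.0 (leidenalg 0.10.2, igraph 0.11.9, scikit-learn 1.9.0). The 10 genes and 197 hepatocyte or red blood cell genes were left out of the variable genes; the second choice was made after seeing the data, because clusters otherwise split by group on hepatocyte transcripts. Of 26 clusters 2 stayed unnamed, and names rest on the marker lists alone.

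Counts were summed per library and class. The 11 of 17 classes that had 20 or more cells per library were tested with edgeR 4.0.16 (TMM, filterByExpr, quasi-likelihood; R 4.3.3), and DESeq2 1.42.0 was an alternative. The SE given with an edgeR change is its absolute value divided by the square root of the quasi-likelihood F statistic. The edgeR step was tested on simulated counts. Thinning to 1000 UMIs left out 145 cells, all of sedentary replicate 1. Genes named from the lists were those called or, failing that, up to 3 with the smallest p. One such gene is not reported here. Apoc2 was not used because its symbol stands in 2 rows. The 10 genes and all lists were chosen with earlier results of these data known. Malat1, Clec4f, C1qb and the gene lengths (GENCODE vM21) in the comparison of clusters were chosen after values were seen.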

Additional observations from a re-analysis of the deposited data

How the results depend on the processing

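With 2 libraries a group, changes of the size seen could not be told from library spread, and small classes (36 to 84 cells a library in classical monocyte-like and other macrophage-like cells) gave few UMIs. None of the 10 genes was called in Kupffer-like cells in 13 of 15 settings. The exceptions were clustering with hepatocyte and red blood cell genes allowed (with the fit without cluster 6, an alternative chosen after seeing the data), with 2 called, Apoe at 0.83 and Apoc1 at 0.64, and the replicate block, with 1 called, Mylip at 0.42 (edgeR adjusted p = 0.0413). The replicate block raised calls in Kupffer-like cells from 46 to 214 and over all 11 classes from 85 to 530; same-numbered libraries deviated together with a correlation of 0.241 over 9866 genes, but with 2 pairs the numbers are only shared. Calls in Kupffer-like cells numbered 211 without a filter on low counts, 167 with hepatocyte genes allowed, 10 in cells with no hepatocyte UMI and 3 to 86 with 1 library left out. Calls over the 11 classes numbered 592 without the filter, 200 with hepatocyte genes allowed and 225 to 377 with 1 library left out. Clustering at resolution 0.5 and the cells without hepatocyte UMIs gave fewer than 11 classes and have no such total. The cause of these shifts was not tested.

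Of 150 member changes under alternatives, 23 had the opposite sign, none of them called. With 1 library left out the log2 changes ran from -0.035 to 0.13 for Apoe, -0.15 to 0.050 for Pltp, -0.23 to 0.47 for Lpl, -0.25 to 0.26 for Abca1, -0.086 to 0.12 for Abcg1, -0.29 to 0.44 for Plin2 and -0.30 to 0.11 for Fabp7. Mylip, at 0.21 to 0.61, and Apoc1, at 0.13 to 0.17, kept their sign. With hepatocyte genes allowed Pltp was 0.16, Lpl -0.077, Abcg1 -0.26 and Fabp7 0.11. In cells with no hepatocyte UMI Pltp was 0.16, Abcg1 -0.053 and Plin2 -0.12. Abcg1 was -0.0124 in cells with at least 1000 UMIs and 500 genes and -0.00326 without cluster 6, and Soat1 was 0.00383 at resolution 0.5 and 0.0052 with doublets kept. The number of genes highest in Kupffer-like cells was 7, and 5 to 7 under the alternatives, because Abcg1 and Plin2 changed their top class with 1 library left out.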

Other observations

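Classes with too few cells for a test gave values in each library that stand in no comparison above. Patrolling monocyte-like cells (12 to 32 a library) held 7044 and 9221 CPM of Apoe with exercise and 6765 and 5828 in sedentary libraries, and 236, 135, 252 and 151 of Pltp in the same order. Lpl in these cells was 0, 94.4, 18 and 0, where the zeros allow up to 142 and 64.8 CPM (3 counts, counting error only), while classical monocyte-like cells held 232 to 302. A small class named from stellate or fibroblast markers (6 to 9 cells a library) held 5730 and 11077 of Apoe with exercise and 8069 and 10033 in sedentary libraries, with 245, 469, 490 and 578 of Pltp.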
